A study of Mus musculus with 24 samples.

Results

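The keratin genes of the mouse were followed through 8 lists of open chromatin from skin stem cells, mapped by ATAC-seq, a method that lets a transposase insert adapters into accessible DNA. Merging the peaks of the lists gave 63188 regions, of which 52773 lay within 50 kb of a protein-coding gene and were assigned to the nearest such gene. The members are the 101 regions whose nearest gene has a symbol made of Krt, digits and an optional letter. They belong to 40 of the 53 keratin genes in the RefSeq table, and the other 13 have no region. Of all 21896 protein-coding genes, 14714 have one. All 24 samples are of skin of a CD1 x C57BL/6J cross. Hair follicle stem cells of unwounded skin (day 0, 4 samples), epidermal stem cells of unwounded skin (day 0, 4 samples, and day 80, 3 samples) and the progeny of hair follicle stem cells after a partial-thickness wound, titled Dremel (day 3, 3 samples, day 7, 2 samples, and day 80, 3 samples) were all from Krt19-CreER/R26-YFP mice. The progeny of epidermal stem cells after a full-thickness wound, titled Punch (day 7, 3 samples, and day 80, 2 samples) were from Sox9-CreER/R26-YFP mice. CreER is a recombinase that acts once tamoxifen is given and here switches on YFP in cells that use the Krt19 or the Sox9 promoter. So the Krt19-CreER allele rests on a gene that is itself a keratin. In the wound lists, wound type, cell of origin and Cre line cannot be told apart. Skin was trypsinized and basal cells were sorted by FACS before transposition. The labels do not give the sort gates, the sex or the age of the mice, or whether cells of several mice were pooled.

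Each group was deposited as 1 peak list, so a region is described as held by a list or not, replicate error cannot be given, and groups were not tested against each other. The lists have 29365 to 37214 peaks, and read depth is unknown. The weakest peak kept in a list has a −log10 q of 5.48 in the day 80 epidermis list and 37.7 in the day 7 partial-thickness list, so a weak region can be missing from a list through its threshold alone. The day 0 epidermis list carries a control tag of day 7 in its peak names, a day with no unwounded group in the labels. The main keratin counts that rest on it are also given with the day 80 epidermis list. The hair follicle stem cell genes Cd34, Lgr5, Lhx2, Nfatc1, Sox9 and Tcf7l1 had 40 regions in the follicle list, 37 at each of days 3 and 7 of the partial-thickness wound and 16 to 23 in the other lists. The epidermal genes Gata3, Klf5 and Bmp4 (Ly6a had none) had 4 regions in the follicle list, 8 to 14 in the wound lists and 14 and 16 in the epidermis lists of days 0 and 80.

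Keratins form the intermediate filaments of epithelial cells, and each filament is built from pairs of an acidic type I and a basic type II keratin. In the mouse the type I genes sit in a cluster on chromosome 11, with Krt18 beside the type II genes on chromosome 15. Which pair is used marks the state of the cell. Krt5 and Krt14 are the pair of basal cells, Krt1 and Krt10 replace them in spinous cells, Krt15 and Krt19 mark the bulge of the hair follicle, Krt6a, Krt6b, Krt16 and Krt17 appear in injured epidermis and in parts of the follicle, and a large set builds the inner root sheath and the hair shaft.

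Promoter windows of RefSeq (GRCm38.p6, the assembly of mm10, 250 bases before to 50 after a start site) were found for 36 of the 53 keratin genes. No window was given for Krt1, Krt4, Krt6a, Krt6b, Krt15, Krt16, Krt17, Krt19, Krt33a, Krt35, Krt80, Krt81, Krt83, Krt86, Krt87, Krt88 and Krt222. In 6 of the 36 the start site of the window lies more than 100 bp inside the gene. Among them are Krt14 at 1480 bp, Krt10 at 8085 bp and Krt78 at 42337 bp. Shown are the windows of Krt5 and Krt25, over which lists had a peak, and of the hair keratins Krt32 and Krt84, which had regions close by and no peak over the window. All 4 begin at the outer end of their gene, lie on the minus strand and are written 5′ to 3′. Capitals mark TATAAA, the core of the TATA box, or its reverse complement.
Krt5, chr15:101712856-101713155: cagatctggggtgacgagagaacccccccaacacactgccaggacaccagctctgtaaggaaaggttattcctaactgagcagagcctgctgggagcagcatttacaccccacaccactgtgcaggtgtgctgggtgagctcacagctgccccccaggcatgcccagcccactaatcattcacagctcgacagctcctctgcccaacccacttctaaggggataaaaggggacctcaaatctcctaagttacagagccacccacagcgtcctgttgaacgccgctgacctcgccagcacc
Krt25, chr11:99322902-99323201: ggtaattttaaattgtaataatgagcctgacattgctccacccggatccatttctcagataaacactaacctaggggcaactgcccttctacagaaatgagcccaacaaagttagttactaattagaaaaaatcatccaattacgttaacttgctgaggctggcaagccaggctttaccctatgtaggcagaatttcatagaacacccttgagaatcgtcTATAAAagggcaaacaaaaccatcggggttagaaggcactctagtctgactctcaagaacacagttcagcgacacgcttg
Krt32, chr11:100088220-100088519: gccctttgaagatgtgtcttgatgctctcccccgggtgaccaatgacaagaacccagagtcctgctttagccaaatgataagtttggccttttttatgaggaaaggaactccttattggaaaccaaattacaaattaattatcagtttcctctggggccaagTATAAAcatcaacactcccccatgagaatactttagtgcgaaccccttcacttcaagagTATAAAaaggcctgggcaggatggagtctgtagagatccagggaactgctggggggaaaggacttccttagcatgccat
Krt84, chr15:101532771-101533070: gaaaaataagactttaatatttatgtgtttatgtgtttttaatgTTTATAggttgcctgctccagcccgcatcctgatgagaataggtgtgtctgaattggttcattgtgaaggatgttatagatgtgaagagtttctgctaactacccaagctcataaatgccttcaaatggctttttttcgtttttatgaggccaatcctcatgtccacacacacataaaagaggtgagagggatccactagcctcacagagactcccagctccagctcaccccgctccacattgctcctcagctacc

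Fewer keratin genes than genes in general had a region at an end of the gene. A region within 1 kb of either end was found for 21 of all 53 keratin genes (39.6%), against 49.2% of the 21896 protein-coding genes. Within single lists the gap was wider, with 7 keratin genes (13.2%) in the day 0 epidermis list, where 39.2% of all genes had such a region, and 16 (30.2%) in the day 7 full-thickness list, where 43% had one. The order depends on the genes counted. Among the 36 keratin genes with a promoter window 11 had a region at an end (30.6%, against 49.2% of all genes with one), and among the 17 without one 10 did (58.8%, against 49.1%). Counted by region the order was reversed, with 27 of the 101 keratin regions within 1 kb of a gene end (26.7%, against 22.2% of all assigned regions).

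Over the windows themselves peaks were found for Krt5 and Krt25, 2 of 36 keratin genes (5.56%), against 54.7% of 17491 protein-coding genes. With the window moved to the outer 5′ end of each gene, Krt14 joined them with a peak in 7 lists, making 3 of 36 (8.33%), against 49.5% of all. Both counts leave out the 17 keratin genes without a window. Of these, 10 had a region within 1 kb of either gene end (58.8%, against 49.1% of all genes without a window). The Krt5 window had a peak in 7 lists and none in the day 0 epidermis list. The Krt25 window, at the start of an inner root sheath keratin, had a peak at days 3, 7 and 80 of the partial-thickness wound and day 7 of the full-thickness wound, and in no unwounded list.

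TATAAA was common in the windows. Searched on both strands, it was in 19 of 37 keratin windows (51.4%, Krt13 having 2 windows) and in 12.6% of the 21262 windows of protein-coding genes. Its first base lies at −30 from the start site in Krt25, at −88 and −29 in Krt32, and at −206 in Krt84. Krt5 has no such match. The AP-1 motif TGANTCA was in 2 keratin windows (5.41%), both of Krt13, a keratin of mucosal epithelia, against 6.99% of all windows. CACCC, bound by Kruppel-like factors, was in 83.8% of keratin windows and 59.5% of all. CCAAT was in 40.5% of keratin windows and 38.2% of all, and ACAANG, bound by Sox factors, in 27% and 38.1%. A match is a stretch of letters and not evidence of binding.

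**Figure D1:**
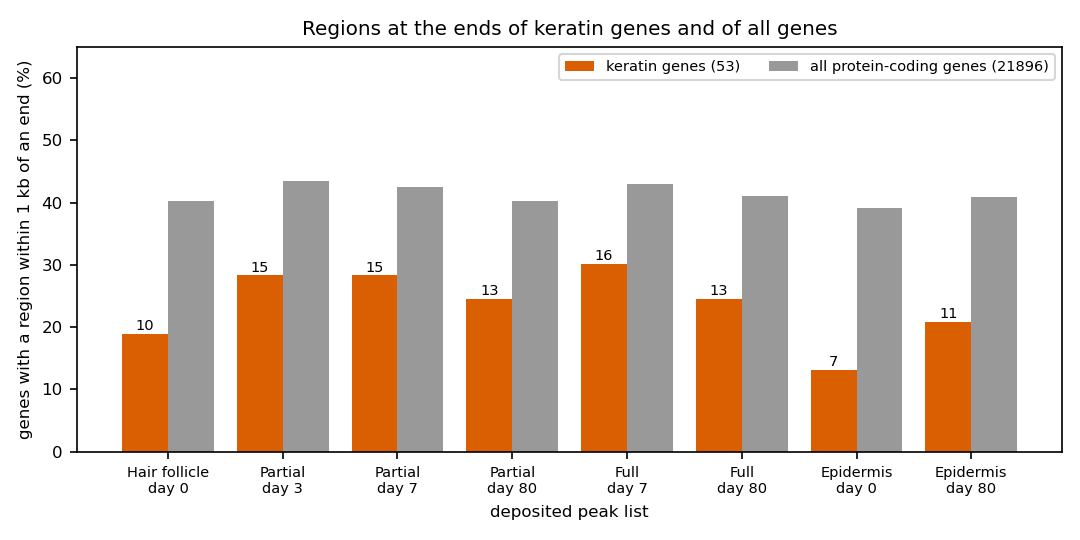
Share of genes with a region within 1 kb of either gene end (y axis, percent) in each deposited list (x axis), for 53 keratin genes (orange, number of genes above the bar) and 21896 protein-coding genes (grey). The keratin share is lower in each of the 8 lists, at 13.2% to 30.2%, while 39.2% to 43.4% of all genes have one.

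Of the 101 keratin regions, 46 lie in the chromosome 11 cluster and 55 in the chromosome 15 cluster. The follicle list held 51 of them. After the partial-thickness wound 51, 58 and 56 were held at days 3, 7 and 80, and after the full-thickness wound 63 and 49 at days 7 and 80. Unwounded epidermis had 32 and 46 at days 0 and 80. The share of keratin regions was near that of all assigned regions in the follicle list (50.5% and 46.8%), at days 7 and 80 of the partial-thickness wound (57.4% and 56.8%, 55.4% and 54.5%) and at days 7 and 80 of the full-thickness wound (62.4% and 61.2%, 48.5% and 53.1%). The day 80 epidermis list held 45.5% of the keratin regions and 51.5% of all. The day 0 epidermis list held 31.7% of the keratin regions beside 49.2% of all assigned regions, the widest gap of any list. The next widest was at day 3 of the partial-thickness wound, with 50.5% and 59%. All 8 lists held 16 keratin regions (15.8%, exact 95% interval 9.33 to 24.4, which covers counting error only), against 24.4% of all regions, and 20 were in all lists other than the day 0 epidermis list. A further 30 were in exactly 1 list (29.7%, against 24.9% of all regions). Regions are described by the score percentile of their peak, the share of peaks in its list that score no higher. Percentiles are ranks within a list and lists differ in length, so they describe each list and show no change between lists.

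Peaks at keratin genes stood out less from their surroundings than other peaks did. The authors' deposited fold enrichment over local background had a median of 6.11 at keratin regions of the follicle list, where all assigned regions had 8.15, and of 6.47 in the day 0 epidermis list, where all had 7.79. The order was the same in all 8 lists. In 68 of the 71 regions held by 2 or more lists, the peaks of every pair of lists shared at least 100 bp. The exceptions were a region of Krt14 and one of Krt88, where peaks of some lists shared no base, and one of Krt17.

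**Figure D2:**
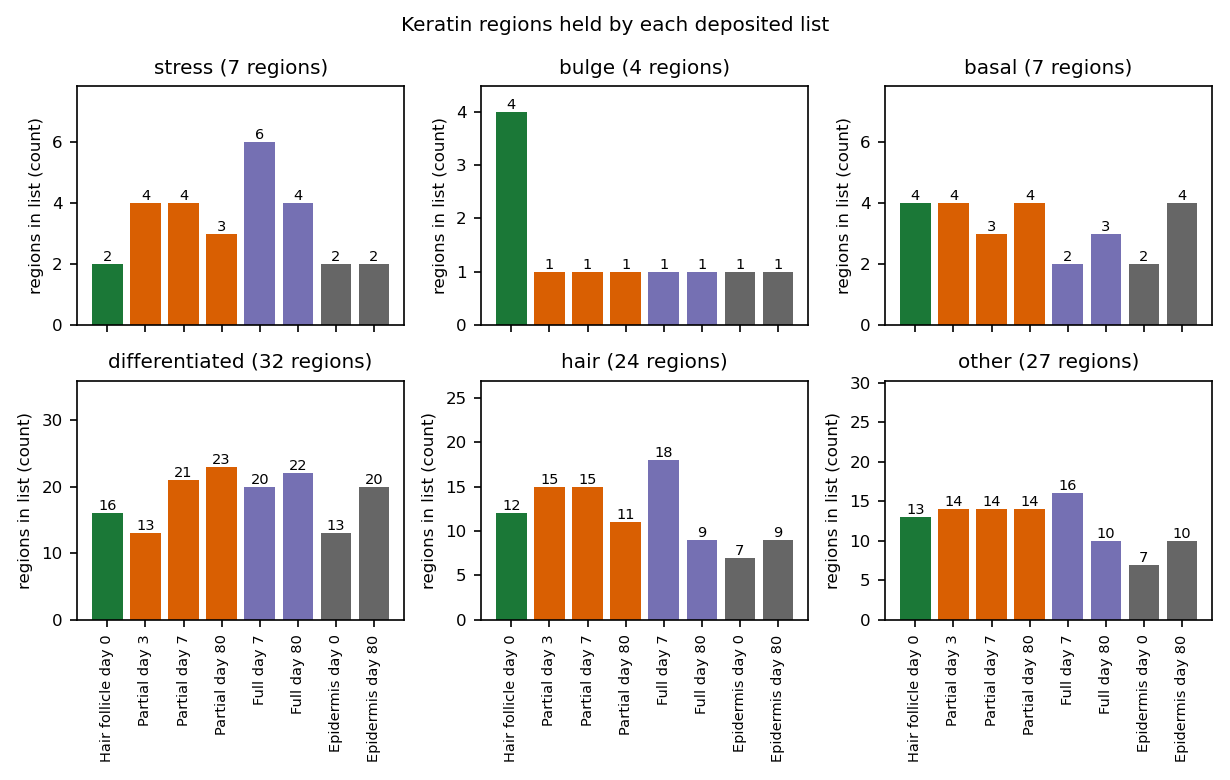
Number of merged regions (y axis, count) held by each deposited list (x axis) for the groups of keratin genes, with the top of each axis just above the number of regions in the group. Bulge keratins have 4 regions in the follicle list and 1 in each other list, and stress keratins have most in the day 7 full-thickness list (6 of 7).

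The stress keratins did not share a pattern. Krt6a had its regions in the hair follicle and early wound lists (1 of them also at day 80 of the full-thickness wound), Krt6b in the day 7 full-thickness list alone, and Krt16 and Krt17 each had a region in every list but that of the hair follicle. Together they had 7 regions, and none was in all 8 lists. The day 7 full-thickness list held 6, the other wound lists 3 or 4, and the follicle and both epidermis lists 2 each. With 7 regions, 6 at day 7 of the full-thickness wound is 85.7%, where that list holds 61.2% of all assigned regions. Both Krt6b regions are members only because that list held them, which raises its share. The 3 or 4 of the other wound lists (42.9% to 57.1%) lie beside 53.1% to 59%, and the 2 of the unwounded lists (28.6%) beside 46.8% to 51.5%.

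Krt6a (gene ID 16687), a type II keratin induced by injury and also made in the inner bulge and companion layer of the follicle, has a region at its upper end (chr15:101694109-101696029). It was held by the follicle list, by days 3 and 7 of the partial-thickness wound and by days 7 and 80 of the full-thickness wound. Its score percentiles were 56.3 in the follicle list, 54.7 and 43.4 at days 3 and 7 of the partial-thickness wound, and 19.2 and 68.4 at days 7 and 80 of the full-thickness wound. It was in neither epidermis list and not in the day 80 partial-thickness list. The summits of the 5 lists lay within 133 bp. A second region, 2954 bp from Krt6a (chr15:101697259-101698086), was in the same lists apart from the day 80 full-thickness list, with percentiles of 9.4 to 25.8. With lists of equal length Krt6a had 1 region in each day 7 list. When a peak had to cover 50% of the region, it had none in the day 80 full-thickness list.

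Krt6b (gene ID 16688), the neighbour of Krt6a, had a region at its upper end (chr15:101680095-101681033, percentile 52.2) and one 2460 bp away (chr15:101682753-101683169, percentile 8.21). Both were in the day 7 full-thickness list and in no other, a pattern that 5.56% of all assigned regions have. The weaker one was lost with lists of equal length. Krt6a and Krt6b are near-identical copies, so reads can be lost or misplaced between them.

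Krt16 (gene ID 16666) and Krt17 (gene ID 16667), type I keratins that partner Krt6 in injured and activated epidermis, lie side by side. The region at the upper end of Krt16 (chr11:100248763-100249514) had percentiles of 73, 66.6 and 74.1 at days 3, 7 and 80 of the partial-thickness wound, 76.1 and 76.8 at days 7 and 80 of the full-thickness wound, and 21.2 and 48.9 in the epidermis lists of days 0 and 80. It was absent from the follicle list, and its summits lay within 113 bp in the other 7. The region 57 bp below the lower end of Krt17 (chr11:100254251-100256158) had the same 7 lists, with percentiles of 29.2 to 74.8 and summits within 104 bp. Among all assigned regions 4.74% are in every list but that of the hair follicle, and among keratin regions 6, at Krt7, Krt12, Krt16, Krt17, Krt33b and Krt80.

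At the upper end of Krt17 a region (chr11:100260823-100262452) was in both day 80 wound lists and in no other. The percentile was 52.8 after the partial-thickness wound and 16.7 after the full-thickness wound. The 2 peaks share only 45 bp and their summits are 985 bp apart, the peak of the full-thickness list lying toward Krt42, which is 430 bp from the region. So they are held to be the same region by a narrow overlap. When a peak had to cover 50% of the region, Krt17 had no region in the day 80 full-thickness list or in either epidermis list.

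**Figure D3:**
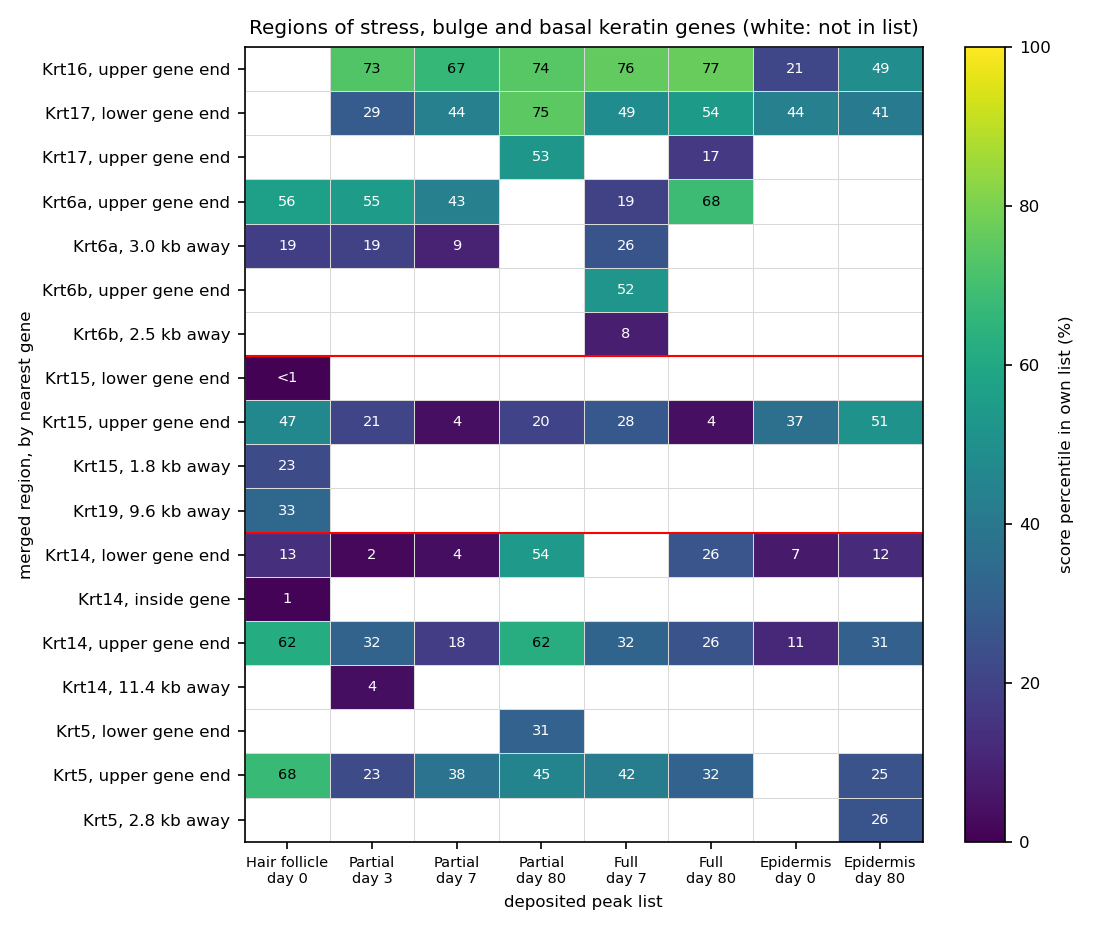
Score percentile of the peak within its own list (colour and number, percent) for the 18 regions of stress, bulge and basal keratin genes (rows, with red lines between the groups) in the 8 deposited lists (columns), white where the list has no peak. Krt16 and the lower region of Krt17 fill every column but the hair follicle, while Krt6a fills the hair follicle and early wound columns and neither epidermal column.

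**Figure D4:**
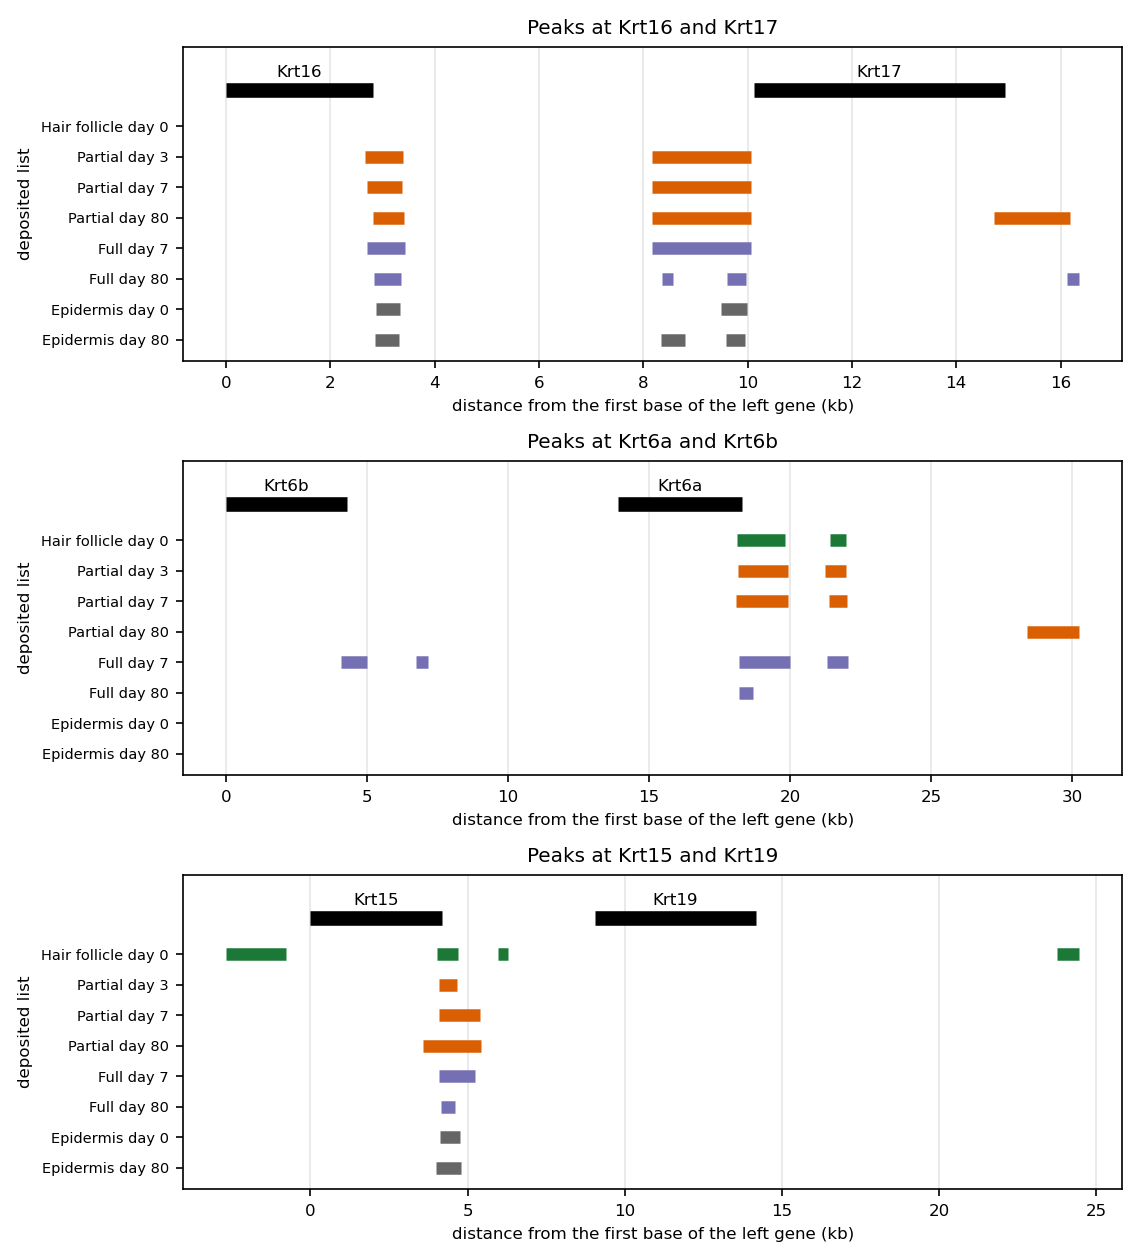
Peaks (coloured bars) of the 8 deposited lists (y axis) at Krt16 and Krt17, Krt6a and Krt6b, and Krt15 and Krt19, by distance from the first base of the left gene (x axis, kb), with genes as black bars. The pair of day 80 wound peaks right of Krt17 overlap by 45 bp, and the peak at the far right of the Krt6a map is the region of Krt5 held by the day 80 partial-thickness list alone.

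Most regions of the bulge keratins were in the follicle list alone. Of their 4 regions, 3 were in that list and in no other, and the fourth was in all 8. Krt15 (gene ID 16665), a type I keratin of bulge stem cells and some basal cells, had the common region at its upper end (chr11:100135334-100137186), with percentiles of 46.8 in the follicle list, 3.97 to 27.6 in the wound lists, and 37.1 and 51.4 in the epidermis lists of days 0 and 80. Its other regions were 1784 bp above the gene (chr11:100137733-100138043, percentile 23.3) and 780 bp below it (chr11:100129079-100130979, percentile 0.504). The peak below the gene is thus among the weakest in its list. With lists of equal length the region at the upper end was missing from the day 7 partial-thickness and day 80 full-thickness lists. Krt19 (gene ID 16669), a keratin of the bulge, had 1 region 9587 bp from the gene (chr11:100155513-100156215, percentile 33.4). It was not in the partial-thickness lists, whose cells descend from Krt19-CreER labelled cells, and no list had a region at the Krt19 gene itself. The Krt19 peak of the follicle list had a −log10 q of 27.2, and the Krt15 peaks of that list alone had 22.8 and 15. The weakest peaks kept have 37.3 and 37.7 at days 3 and 7 of the partial-thickness wound and 29.9 at day 7 of the full-thickness wound. The other wound and epidermis lists keep peaks down to 5.48 to 18.7. The part of these thresholds was not tested.

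In all, 13 keratin regions were in the follicle list alone (12.9%, against 7.44% of all assigned regions). The ones outside the bulge group belong to Krt7, Krt14, Krt23, Krt24, Krt31, Krt32, Krt71, Krt75 and Krt222. The strongest was the region 5746 bp from Krt222, at percentile 73.8. None of the bulge regions of the follicle list was in the upper 50% of that list by score.

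The basal keratins had regions at their ends in nearly every list, of modest rank. Of their 7 regions the day 7 full-thickness and day 0 epidermis lists held 2 each (28.6%), beside 61.2% and 49.2% of all assigned regions. The other lists held 3 or 4 (42.9% to 57.1%), beside 46.8% to 59%. Krt5 (gene ID 110308) had its region over the start of the gene (chr15:101712491-101714607) at percentiles of 67.6 in the follicle list, 22.9, 38.2 and 45 at days 3, 7 and 80 of the partial-thickness wound, 41.9 and 31.6 at days 7 and 80 of the full-thickness wound, and 25.4 in the day 80 epidermis list. It was not in the day 0 epidermis list, and its summits in the other 7 lay up to 1025 bp apart. Krt14 (gene ID 16664) had a region at its upper end (chr11:100206696-100210429) in all 8 lists, at 61.8 in the follicle list, 18.1 to 62.4 in the wound lists, and 11.3 and 30.6 in the epidermis lists of days 0 and 80. The summits of this region lie up to 2344 bp apart. A region at the lower end of Krt14 (chr11:100200055-100203696) was in every list but that of day 7 of the full-thickness wound. That region spans 3642 bp, and its summits lie up to 3021 bp apart. When a peak had to cover 50% of the region, Krt14 had none in either day 7 list, the day 80 full-thickness list or the day 0 epidermis list. Krt5 then had none in the day 80 full-thickness and day 0 epidermis lists.

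The other 4 of the 7 basal regions were each in exactly 1 list (24.9% of all assigned regions are). They were a Krt5 region 798 bp below the gene in the day 80 partial-thickness list (chr15:101704415-101706271, percentile 31.3), one 2797 bp above it in the day 80 epidermis list (chr15:101715702-101716189, 25.8), one inside Krt14 in the follicle list (chr11:100205158-100205681, 1.01) and one 11383 bp from Krt14 at day 3 (chr11:100218893-100219638, 3.74). The last was lost with lists of equal length. Across all keratin genes, 4 regions were in every list but that of day 0 epidermis, at Krt5, Krt23, Krt80 and Krt88 (3.96%, against 1.07% of all assigned regions).

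The share of differentiated keratin regions was above that of all regions in the 3 day 80 lists and at day 7 of the partial-thickness wound, and below it at day 3 and in the day 0 epidermis list. Of 32 regions at 8 of 11 genes, the follicle list held 16, the partial-thickness lists 13, 21 and 23 at days 3, 7 and 80, the full-thickness lists 20 and 22 at days 7 and 80, and the epidermis lists 13 and 20 at days 0 and 80. At day 80 the shares were 71.9% and 68.8% in the partial- and full-thickness lists and 62.5% in the epidermis list, beside 54.5%, 53.1% and 51.5% of all assigned regions. Day 7 of the partial-thickness wound had 65.6% beside 56.8%, while day 3 had 40.6% beside 59% and day 0 epidermis 40.6% beside 49.2%. Day 7 of the full-thickness wound (62.5% and 61.2%) and the follicle list (50% and 46.8%) were near the share of all regions. Krt80 and Krt78 had 14 and 7 of the 32 regions, so the group shares rest largely on them. Krt2, Krt13 and Krt76 had no region. Of the 12 keratin regions in the day 7 and not the day 3 partial-thickness list, 9 were of this group, most of them at Krt78 and Krt80. The others were at Krt1 and Krt77. Several of the 9, at Krt77, Krt78 and Krt80, were also in the follicle list. Keratin regions in the day 7 and not the day 3 list made up 11.9%, against 7.68% of all assigned regions, and the reverse 4.95% against 9.9%.

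Krt10, the type I keratin of spinous cells, had 3 regions, of which none was in the early partial-thickness lists. The region 5869 bp away (chr11:99403318-99404449) was at percentile 75.9 in the day 80 partial-thickness list, 16.7 in the day 80 full-thickness list, and 11.8 and 20.3 in the epidermis lists of days 0 and 80. It was absent from the follicle list and all 3 early wound lists. The region at chr11:99390795-99392393 lies inside Krt10 as annotated, but before the start site of its promoter window. That region was held by both day 80 wound lists, by the day 7 full-thickness list and by the day 80 epidermis list. Its percentiles were 6.35 to 21.6, and its summits lay up to 1048 bp apart. The third region, inside Krt10 near its lower end (chr11:99385914-99386856), was in the follicle list (percentile 27.3) and the day 80 full-thickness list (17.1). Krt1, the type II partner of Krt10, had a region 9940 bp away (chr15:101834849-101835486) at days 7 and 80 of the partial-thickness wound and day 7 of the full-thickness wound, at percentiles of 20.4, 71.6 and 4.31, and in no unwounded list. Its other region, at the gene end (chr15:101846015-101846268), was in the day 80 epidermis list alone, at percentile 5.73.

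Krt77, a type II keratin of suprabasal cells, had a region 1437 bp from the gene (chr15:101854864-101857294) in every list but day 3. It ranked at percentile 98.3 in the day 80 partial-thickness list, 85.3 in the day 80 full-thickness list, 76.2 and 79.1 in the epidermis lists of days 0 and 80, and at 22.3 in the follicle list. At day 7 it stood at 47.4 after the partial-thickness and 13.5 after the full-thickness wound. It thus stood in the upper part of both epidermis lists and both day 80 wound lists. A second Krt77 region (chr15:101875843-101876981) was in the day 80 partial-thickness list (percentile 50) and both epidermis lists (21.2 and 24.7). Krt4, a mucosal keratin, had 1 region at its gene end (chr15:101923182-101923894), which was in the follicle list, both day 80 wound lists and both epidermis lists, and in none of the 3 early wound lists.

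Krt80, a type II keratin of differentiating epithelia, had the most regions of any keratin gene, 14. They numbered 8 in the follicle list, 7, 12 and 10 at days 3, 7 and 80 of the partial-thickness wound, 9 and 11 at days 7 and 80 of the full-thickness wound, and 5 and 9 in the epidermis lists of days 0 and 80. The regions at chr15:101362300-101362943, inside the gene, and chr15:101384730-101385477, 14568 bp away, were at day 7 of the partial-thickness wound and in both day 80 wound lists, and in no unwounded list. In the day 80 partial-thickness list they ranked at 51.7 and 25.2. The region at chr15:101353963-101354852 was in the follicle list and both day 7 lists and in none of day 80. Krt78, a suprabasal keratin with a gene of 50624 bp in the table, had 7 regions inside the gene, of which 2 were in all 8 lists. The start site of its promoter window lies 42337 bp inside the gene, and all the regions but chr15:101952578-101953312 lie before it. Krt9, a keratin of palm and sole, had 2 regions, 8825 and 16926 bp away in the gap toward Krt19, and Krt79, a keratin of the follicle opening, 1 region at day 3 alone.

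Hair keratins, which build the inner root sheath, companion layer and hair shaft, had regions at 14 of 23 genes, with shares near those of all regions at days 3 and 7 of the partial-thickness wound. Of their 24 regions, 15 were in the lists of days 3 and 7 of the partial-thickness wound each and 18 in that of day 7 of the full-thickness wound, with 12 in the follicle list, 11 and 9 in the day 80 partial- and full-thickness lists, and 7 and 9 in the epidermis lists of days 0 and 80. The share was 62.5% at days 3 and 7 of the partial-thickness wound, beside 59% and 56.8% of all assigned regions, and 75% at day 7 of the full-thickness wound, beside 61.2%. It was 50% in the follicle list beside 46.8%, 45.8% and 37.5% in the day 80 partial- and full-thickness lists beside 54.5% and 53.1%, and 29.2% and 37.5% in the epidermis lists of days 0 and 80 beside 49.2% and 51.5%. Krt26, Krt28, Krt34, Krt35, Krt36, Krt40, Krt81, Krt82 and Krt87 had no region. Regions in all 3 early wound lists and in no unwounded list numbered 7 (6.93%, against 5.96% of all assigned regions), and 5 of them were at hair keratins, namely Krt25, Krt75, Krt84 (2) and Krt86. The total is therefore near the background.

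Krt84, a type II hair keratin, had 3 regions in wound lists and none in an unwounded list. At chr15:101536000-101536933, 3180 bp away, the percentiles were 48.5 and 23 at days 3 and 7 of the partial-thickness wound and 60.4 and 41 at days 7 and 80 of the full-thickness wound. Krt75, a type II keratin of the companion layer, had a region inside the gene in the follicle list alone (chr15:101563766-101565604, percentile 29.6) and another 9064 bp away in the 3 early wound lists alone (chr15:101582968-101584970, percentiles 73.5, 61.2 and 70.5). Krt86, a hair cortex keratin, had a region at its lower end in all partial-thickness lists and the day 7 full-thickness list, and one at its upper end (chr15:101478682-101480023) in both day 80 wound lists alone, at percentiles of 27 and 9.86.

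Other hair keratins had regions that were common to most lists. A region inside Krt32, a cuticle keratin (chr11:100085103-100086127), was in all 8 lists and reached percentile 99.8 at day 7 of the full-thickness wound, with 66.1 in the follicle list and 75.4 in the day 0 epidermis list. A region 1782 bp from Krt33b (chr11:100020797-100021852) ranked at 84.4 to 96.8 in the partial-thickness and day 7 full-thickness lists, at 51.2 in the day 80 full-thickness list and at 33 and 46.1 in the epidermis lists, and was absent from the follicle list. Krt31 (4998 bp away), Krt33a and Krt72 each had 1 region in all 8 lists, at percentiles of 83.9 to 97.7, 13 to 46.3 and 19.6 to 80.3. Krt71 had a region 8943 bp away in the early wound lists, the day 80 full-thickness list and the day 80 epidermis list, and Krt83 1 region in 6 lists at 5.03 to 50.7. Krt25 and Krt39 fall outside the rule for named genes and were chosen after their values were seen. The Krt25 region over the promoter window had percentiles of 22.9, 13.8 and 42.7 at days 3, 7 and 80 of the partial-thickness wound and 49.8 at day 7 of the full-thickness wound. The Krt39 region was in the follicle list, all partial-thickness lists and the day 7 full-thickness list.

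The remaining keratins had 27 regions at 10 of 11 genes. Krt8 and Krt18, the pair of simple epithelia and of Merkel cells, differed. Krt8 had 1 region, 669 bp from the gene (chr15:102005011-102006486), in all 8 lists at percentiles of 47 to 83.5, and Krt18 had 1, 11070 bp away (chr15:102016034-102017146), at day 3 of the partial-thickness wound (36.3) and day 7 of the full-thickness wound (38.7). Krt20, a Merkel cell keratin, had none. The Merkel cell genes Atoh1, Isl1, Insm1, Syp and Sox2 had 2 to 5 regions in all per list, Pou4f3 and Chga had none in any list, and the part of such cells in the Krt18 values was not tested.

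Krt7, a keratin of simple and glandular epithelia, had a region 8627 bp away (chr15:101402492-101403776) in every list but that of the hair follicle, at 73 and 75 in the day 7 partial- and full-thickness lists and 6.52 in the day 0 epidermis list. Krt12, a cornea keratin, had a region 328 bp below the gene (chr11:99414597-99415336) with the same lists, at 63.3 to 82.1 in the wound lists, and 27 and 54.3 in the epidermis lists. Krt24 had a region 2617 bp away (chr11:99275906-99277342) in the follicle list (73.2), all partial-thickness lists (61, 49.6 and 47.5) and the day 7 full-thickness list (66.9), and in neither epidermis list. Krt23 had 6 regions, of which 1, 4257 bp away (chr11:99473407-99473716), was in both day 80 wound lists alone, at percentiles of 54.3 and 6.35. Krt42 had 4 regions, 7815 to 18624 bp beyond the gene, and 3 of them were in all 8 lists. Krt88 and Krt90 had 1 region each, in 7 lists and in the early partial-thickness lists.

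The hair follicle was set against epidermis of both days, since the 2 epidermis lists gave different counts. There were 28 keratin regions in the follicle list and not the day 0 epidermis list (27.7%, exact 95% interval 19.3 to 37.5), against 15.8% of all assigned regions. The reverse held for 9 (8.91%, 4.16 to 16.2), against 18.2%. With the day 80 epidermis list in place of that of day 0 the counts were 22 (21.8%, 14.2 to 31.1, against 14.6%) and 17 (16.8%, 10.1 to 25.6, against 19.3%). Genes of fibroblasts also moved with the follicle list, with 14 regions at Col1a1, Col1a2, Pdgfra and Fbn1 in it. The epidermis lists of days 0 and 80 had 3 and 5, and the part of these genes in the keratin counts was not tested.

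The 2 epidermis lists differed at 15 keratin regions in the day 80 and not the day 0 list (14.9%, against 9.34%) and 1 the other way (0.99%, against 7.02%). Of the 15, 8 were at differentiated keratins and 2 at Krt5.

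Between the day 3 partial-thickness list and the follicle list, 22 keratin regions were in the wound list alone of the pair (21.8%, against 24.7%) and 22 in the follicle list alone (21.8%, against 12.4%). Day 3 or day 7 of that wound and neither day 0 list held 21 (20.8%, against 19.7%), close to the background, and 13 with lists of equal length. With the day 80 epidermis list in place of that of day 0 there were 19. Of the 21, 0 were at stress keratins, with Krt6a already in the follicle list and Krt16 and Krt17 in the day 0 epidermis list. The day 80 partial-thickness list held 6 of them (28.6% of the 21, against 20.1% of all regions of that class, and 5.94% of the 101, against 3.96% of all), at Krt1, Krt25, Krt78, Krt80 (2) and Krt86. Any wound list and no unwounded list held 32 (31.7%, against 28.7%). Regions of the follicle list that neither epidermis list had and that all 3 early wound lists shared numbered 6 (5.94%, 2.21 to 12.5, against 1.86%), namely both regions of Krt6a and 1 each of Krt9, Krt24, Krt39 and Krt80. The day 7 full-thickness list held 36 keratin regions that day 0 epidermis lacked (35.6%, 26.4 to 45.8, against 23.8%), with 4 at the stress keratins Krt6a and Krt6b and 11 at hair keratins. With the day 80 epidermis list as the comparison it held 27 (26.7%, against 23.1%). Between the day 7 lists, 12 keratin regions were in the full-thickness and not the partial-thickness list (11.9%, against 14.1%) and 7 in the partial-thickness list only of the pair (6.93%, against 9.66%). The immune cell genes Ptprc, Cd3e and Itgam (Cd207 and Lyz2 had none) had 0 regions in the follicle list, 3 or 4 in the wound lists and 2 and 4 in the epidermis lists, and their part in these counts was not tested. The endothelial genes Pecam1 and Cdh5 (Kdr had none) had 7 to 9 regions in the wound lists and 3 in the follicle list. The epidermis lists of days 0 and 80 had 4 and 6. Of the 13 endothelial regions 12 were at Pecam1. The 1 at Cdh5 was in the follicle, day 0 epidermis and early partial-thickness lists. The part of these genes was not tested. Genes of melanocytes had 8 to 14 regions per list and of sebaceous glands 3 to 7, likewise not tested.

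At day 80 the partial-thickness list held 17 keratin regions that the day 80 epidermis list lacked (16.8%, against 11%), and lacked 7 that it held (6.93%, against 8.04%). The full-thickness list held 10 (9.9%, against 10.7%) and lacked 7 (6.93%, against 9.14%). Between the day 80 wound lists, 7 were in the full-thickness list only (6.93%, against 9.47%) and 14 in the partial-thickness list only (13.9%, against 10.9%). Both day 80 wound lists and no unwounded list held 5 keratin regions (4.95%, 1.63 to 11.2, against 1.75% of all assigned regions), at Krt17, Krt23, Krt80 (2) and Krt86. Of these, the regions of Krt17, Krt23 and Krt86 were in no early wound list either (2.97%, against 0.417%). Peaks of both lists at Krt23 and Krt86 shared 199 and 303 bp with summits 65 and 105 bp apart. In the day 80 full-thickness list the regions of Krt17, Krt23 and Krt86 ranked between 6.35 and 16.7. The count of 5 was recomputed after its value was seen. When a peak had to cover 50% of the region, 2 keratin regions met the first of these calls, at Krt23 and Krt78, and with lists of equal length 3 did, at Krt17, Krt78 and Krt80. In the upper 50% of each list by score 3 did, at Krt16, Krt17 and Krt33b. Krt86 had no region in the day 80 full-thickness list under the first 2 settings.

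Genes whose products bind keratin filaments or are linked to them had regions in like numbers in the follicle and day 0 epidermis lists, 51 and 47. The day 80 epidermis list had 50. Of 15 such genes, among them the desmosome genes Dsp, Jup and Pkp1 and the plakins Plec and Dst, 14 had 86 regions, of which 30 were in all 8 lists. The 30 are 34.9%, against 24.4% of all assigned regions. They had 13 regions in the follicle list and not the day 0 epidermis list (15.1%, against 15.8%) and 9 in the reverse direction (10.5%, against 18.2%). The day 80 partial- and full-thickness lists held 10 (11.6%, against 11%) and 7 (8.14%, against 10.7%) that day 80 epidermis lacked. Flg, which encodes filaggrin of the granular layer, had no region in any list.

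**Figure D5:**
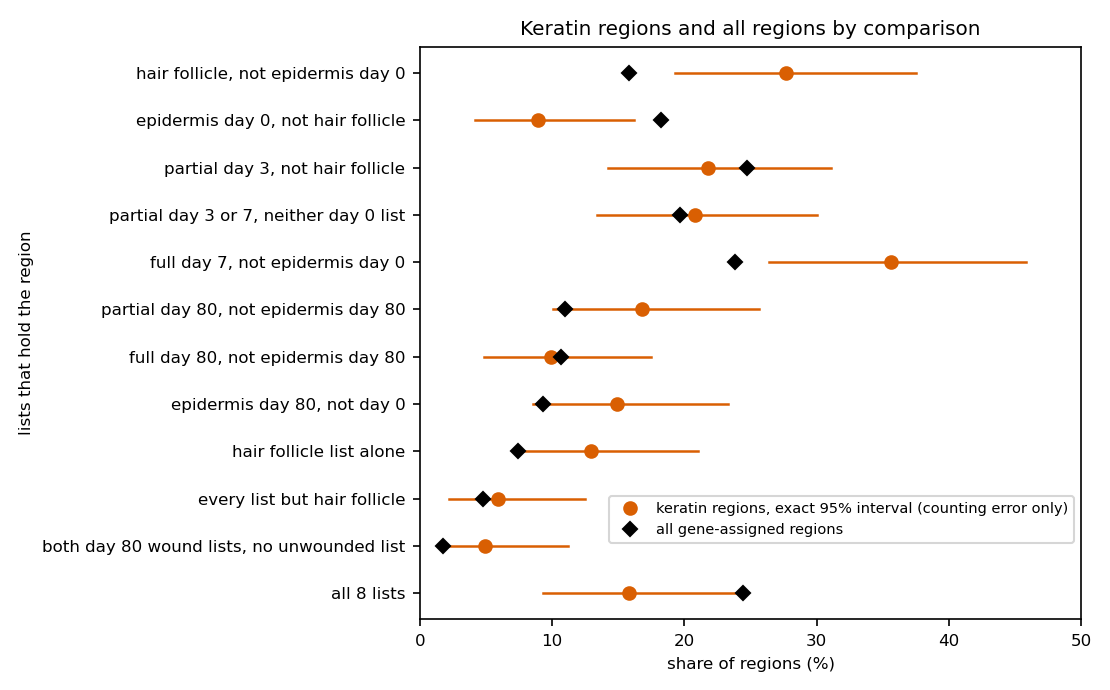
Share of regions (x axis, percent) that meet each combination of lists (y axis), for the 101 keratin regions (orange, exact 95% interval for counting error) and for all 52773 gene-assigned regions (black). The keratin share is above that of all regions for hair follicle against day 0 epidermis (27.7% and 15.8%) and day 7 full-thickness wound against day 0 epidermis (35.6% and 23.8%), and close to it for regions of the early partial-thickness wound (20.8% and 19.7%).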

How the data were processed

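Open chromatin was measured by ATAC-seq in 24 samples of 8 groups, and each group has 1 deposited peak list, matched by the name it was deposited under. The tools MACS2 2.1.1.20160309, bedtools 2.29.2, Picard and Bowtie and the build mm10 are named, without role or order, per the submitters' processing notes. The sources used here do not say whether reads or calls of replicates were pooled. The deposited score of a peak is 10 times its −log10 q, to within 1. The deposited fold enrichment is a ratio over the background of the peak's own list, and the deposited −log10 q likewise belongs to that list. All are the authors' and served to rank or describe peaks within a list. Gaps in the deposited peak numbers show that 32.8% to 82.5% of the calls were kept. The summit offset was used as deposited.

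Touching peaks of all 267990 were merged, and a list held a region with an overlap of at least 1 bp. Regions were assigned to the nearest of 21896 protein-coding genes of RefSeq GRCm38.p6 within 50 kb (largest overlap where several were equally near). The table gives no exons, so exonic or intronic positions were not analysed here. Promoter windows came from RefSeq with the same build, and a window of the same length was also set at the outer 5′ end of each gene. Python 3.11.15, pandas 2.3.3 and SciPy 1.17.1 were used, merging and assignment were tested on simulated data, and shares carry exact Clopper-Pearson intervals for counting error. With 1 list per group no test was run, and the labels do not say whether samples came from separate mice.

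Keratins were grouped by textbook role. Every stress, bulge and basal gene was named, and up to 10 genes of each other group by number of regions, then number of lists. Members and lists were chosen with earlier results of these data known. Alternatives were a 50% cover rule, lists of equal length, the upper 50% by score, windows of 10 and 100 kb, the nearest gene start or end, and the day 80 epidermis list in place of day 0. Leaving out the day 0 epidermis list was added after seeing the data. Sequences of the regions themselves were not used here.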

Additional observations from a re-analysis of the deposited data

How the results depend on the processing

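Of 60 recomputed counts, 47 stayed within 1.5 times the reported value, and 13 did not. When a peak had to cover 50% of a region, 1 keratin region was in all 8 lists (16 reported), 5 were in the day 0 epidermal and not the follicle list (9), 35 in the day 80 partial-thickness and not the day 80 epidermis list (17) and 5 in the day 80 full-thickness and not the day 80 epidermis list (10). This rule thins lists with narrow peaks, and the median peak is 460 bp wide in the day 80 full-thickness list, 641 bp in the day 80 epidermis list and 961 bp in the day 80 partial-thickness list. With lists of equal length, 13 keratin regions were in an early partial-thickness list and neither day 0 list (21). In the upper 50% of each list by score there were 48 keratin regions in all (101), 2 in all 8 lists, 14 in the hair follicle and not the day 0 epidermis list (28) and 1 the other way, 9 in the day 80 and not the day 0 epidermis list (15), 11 of the early partial-thickness wound and neither day 0 list, and 23 in the day 7 full-thickness and not the day 0 epidermis list (36). This setting removes peaks by construction. With the day 80 epidermis list in place of day 0, 17 were in the epidermal and not the follicle list (9). Windows of 10 kb and 100 kb and assignment by gene start or end moved none of the 9 counts by more than 1.5 times. Leaving out the day 0 epidermis list was run for 2 of them, with 101 regions in all and 20 in all 7 lists. No paired analysis was possible because each group has 1 deposited list and its columns carry no replicate. For the same reason no replicate could be left out. Read depth is unknown, so a region absent from a list may lie under its threshold.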
